A study of Macaca mulatta with 12 samples.

Results

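The genes described here come, by symbol, from families of G protein and cyclic AMP signalling, read in the corpus luteum of the rhesus macaque. Not all of them act through cyclic AMP. They are 79 of the 14132 genes that had a probe set with exactly 1 symbol in the array annotation. They were chosen by symbol alone: numbered adenylyl cyclases (ADCY), phosphodiesterases (PDE) and RGS proteins, catalytic and regulatory subunits of protein kinase A (PRKA), A-kinase anchoring proteins (AKAP), G protein alpha subunits (GNA), numbered CREB factors, CREM, RAPGEF3 and RAPGEF4. That gave 9 adenylyl cyclases, 21 phosphodiesterases or their subunits, 7 protein kinase A subunits, 9 anchoring proteins, 2 RAPGEF exchange factors, 8 CREB or CREM factors, 5 alpha subunits and 18 RGS proteins or their binding partners.

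The corpus luteum makes progesterone under the control of luteinising hormone (LH). Its receptor activates the stimulatory G protein, whose alpha subunit turns on adenylyl cyclase, and cyclic AMP then releases the catalytic subunits of protein kinase A from their regulatory subunits. Anchoring proteins place the kinase at particular sites in the cell, the RAPGEF exchange factors (EPAC) are a second receptor for cyclic AMP, and CREB and CREM carry the signal to genes. Most of the phosphodiesterases break cyclic AMP or cyclic GMP down, and RGS proteins speed the return of alpha subunits to their inactive state.

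RNA came from whole corpora lutea of 12 normally cycling female rhesus macaques, with 1 biotin-labelled Affymetrix array for each corpus luteum. The 4 mid-late corpora lutea, the baseline, were removed 10 to 12 days after the LH surge. The late corpora lutea were removed on days 14 to 16 and divided by serum progesterone at collection, into 4 late functional (above 1.5 ng/ml) and 4 late regressed (below 0.5 ng/ml). The labels name no treatment, and all groups share spontaneous cycles, surgical collection and flash freezing. Late groups were defined by progesterone itself, so a late regressed corpus luteum is one already found to have low output, and days within the ranges are not separated here.

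Values are the deposited log2 values, on which a difference of 1 is a 2-fold difference. Each gene is read by its brightest probe set, so levels of different genes are not compared. Means carry the SD over 4 arrays, SE belongs to a difference, and adjusted p-values are limma's, Benjamini-Hochberg adjusted over all tested probe sets. A gene is called, and said to have risen or fallen, where that adjusted p is below 0.05. Where all 3 group means lie at or below 4.64, the 95th percentile of 674 mostly dim probe sets with the prefix NC, the gene is said to have low signal, which applied to 27 of the 79 genes. Corpora lutea are bulk tissue, so fewer cells of a type and less RNA per cell cannot be told apart.

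Luteal markers were well above that level in the baseline group, with STAR at 13.52 ± 0.12 and INHA at 12.55 ± 0.09. CYP11A1, LHCGR and SCARB1 had no probe set with a single symbol and were not analysed here. Late regressed arrays 2 and 3 stood apart from arrays 1 and 4. Averaged over 10 luteal markers and set against the baseline mean, they read -1.85 and -2.05, against -0.53 on array 1 and -0.93 on array 4. Array 2 also had a 3′ to 5′ difference of 2.55 over the control transcripts, against 0.48 to 0.73 on the other 11 arrays. Where they turn a late regressed difference of one of the 79 genes or move it by over 1.5 times, the value without them is given as well.

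Between the late regressed and mid-late groups 12 of the 79 genes were called, or 15.2%, against 13.1% of all genes. Of these, 9 rose (7.6% of all genes did) and 3 fell (5.51% of all genes did). The genes that rose were the cyclases ADCY4 and ADCY6, the anchoring proteins AKAP8, AKAP8L and AKAP17A, the alpha subunit GNA14, the phosphodiesterases PDE4A and PDE10A and the transcription factor CREB5. Those that fell were PDE4D, PDE6A and RGS2. The share called is near that of the array as a whole, so the count says nothing particular about these genes as a group.

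At an unadjusted p below 0.05 there were 29 genes, or 36.7%, against 35.8% of all genes. The median difference over all 79 genes was 0.04, with 43 above 0 and 36 below, beside a median of -0.02 over all genes. In 19 genes, or 24.1%, the late regressed arrays did not overlap the mid-late arrays, which 20.7% of all genes also showed. All 12 called genes were among them. With a renewed quantile normalization the called genes were 5 higher and 5 lower in place of 9 and 3. AKAP8, AKAP17A, CREB5 and PDE4A then lost their call, and PDE12 and ADCY7 became called as lower. With the per-array mean of the NC probe sets as a covariate, 0 of the 79 genes were called and 0% of all genes. That mean ran from 3.65 to 3.75 on the mid-late arrays and from 3.48 to 3.61 on the 8 late arrays, and its part in the differences was not tested.

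Without late regressed arrays 2 and 3, ADCY4 and AKAP8L were the 2 genes of the 79 still called, and 2.55% of all genes were. The other 10 kept their sign with adjusted p-values from 0.0532 to 0.183. With only the mid-late and late regressed arrays in the fit, the same 2 genes were called.

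**Figure D1:**
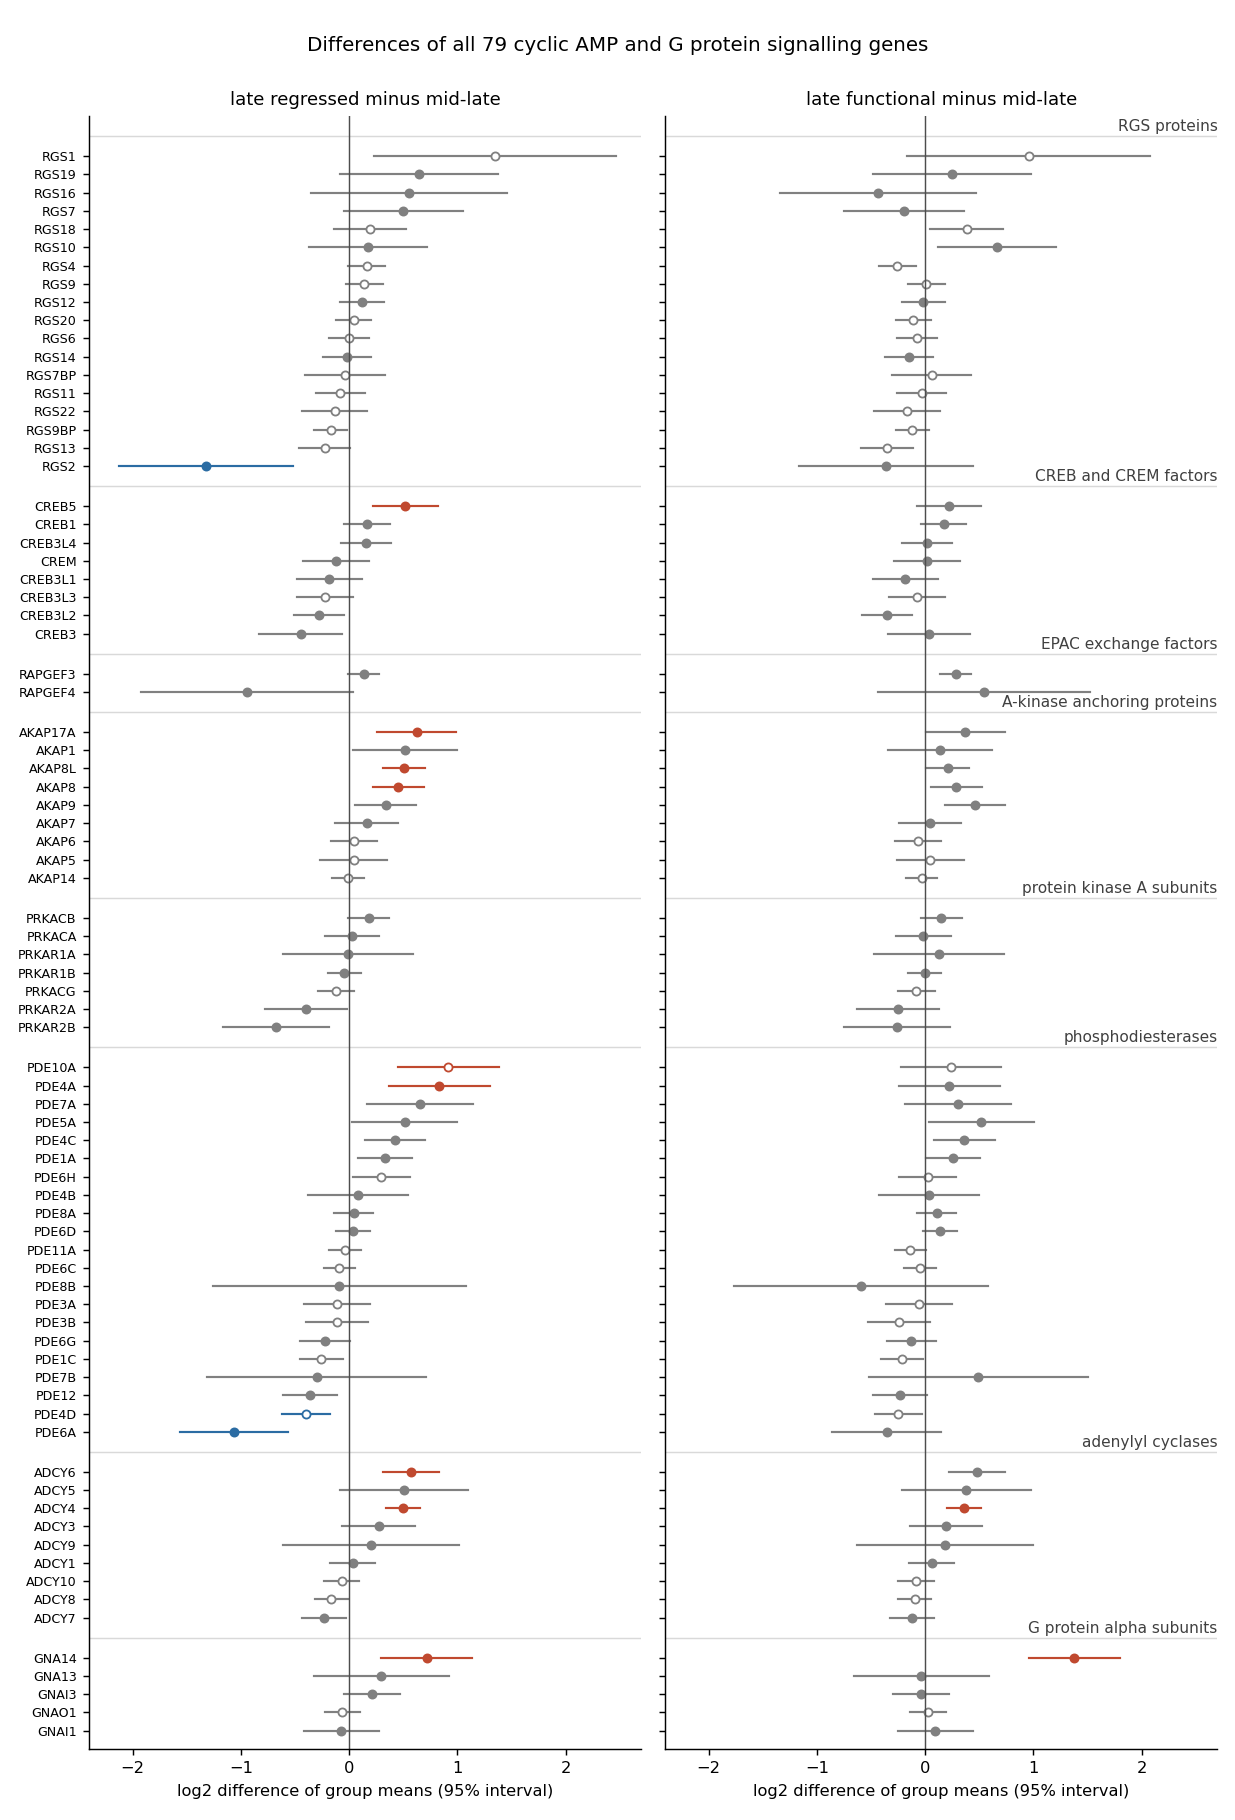
Log2 difference from the mid-late group of the late regressed group (left) and the late functional group (right) for each of the 79 genes, by family; points are the estimated differences, bars their 95% intervals, red and blue points the called genes (higher and lower) and open points the genes with low signal in all groups. On the left the 12 called genes are spread over 6 of the 8 families, from RGS2 at -1.32 to PDE10A at 0.92, and on the right ADCY4 and GNA14 are the 2 called.

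Among the alpha subunits, 1 of 5 was called. GNA14 encodes a subunit of the Gq family, which couples receptors to phospholipase C rather than to adenylyl cyclase. It read 4.87, 4.23, 4.53 and 4.44 on mid-late arrays 1 to 4, then 5.46, 5.82, 6.03 and 6.27 on the late functional arrays and 4.89, 5.29, 5.19 and 5.56 on the late regressed arrays. All 8 late arrays lay above the highest mid-late array, and late regressed array 4 lay above the lowest late functional array. The late functional group was thus the highest, at 5.89 ± 0.34 against 4.52 ± 0.27 in the mid-late group. GNA14 rose by 1.38 (SE 0.19, adjusted p = 0.0211) in the late functional group, with a 95% interval of 0.96 to 1.80. It rose by 0.72 (SE 0.19, adjusted p = 0.0388) in the late regressed group. The difference between the late groups was -0.66 (adjusted p = 0.243) and did not pass.

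The increase in late functional tissue was lost without mid-late array 2, late functional array 2 or late functional array 3 (adjusted p from 0.0553 to 0.0882). The increase in late regressed tissue was lost on leaving out any of 8 arrays, namely mid-late arrays 2 to 4, late functional arrays 2 and 3 and late regressed arrays 2 to 4 (adjusted p from 0.0548 to 0.102). Without late regressed arrays 2 and 3 together it was 0.71 (adjusted p = 0.149).

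The inhibitory alpha subunits, which restrain adenylyl cyclase, had 0 of 3 called by limma, and 0 of 3 at an unadjusted p below 0.05. GNAI3 read from 9.44 to 9.54 on the mid-late arrays and 9.48, 9.89, 10.01 and 9.46 on the late regressed arrays, a difference of 0.21 (adjusted p = 0.253). Its 2 high values are those of late regressed arrays 2 and 3, and the difference is -0.03 without them. GNAI1 differed by -0.07 (adjusted p = 0.80). GNA13, of the G12 family, differed by 0.30 (adjusted p = 0.517), with late regressed array 3 at 5.96 and the other 11 arrays between 4.26 and 5.20. Without late regressed arrays 2 and 3 it differed by -0.05. The alpha subunit that LH action rests on, GNAS, had no probe set with a single symbol, nor did GNAI2, GNAQ, GNA11 or GNA12, and they were not analysed here.

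Adenylyl cyclases make cyclic AMP from ATP, and 2 of 9 rose. ADCY4, a form stimulated by G protein beta and gamma subunits, had the smallest adjusted p of the 79 genes. Its values were 8.14, 8.22, 8.21 and 8.17 on mid-late arrays 1 to 4, 8.49, 8.39, 8.66 and 8.64 on the late functional arrays and 8.64, 8.73, 8.74 and 8.63 on the late regressed arrays. Both late groups lay wholly above the mid-late group and overlapped each other. ADCY4 rose by 0.50 in late regressed tissue (SE 0.07, adjusted p = 0.00716), a 1.41-fold difference, and by 0.36 in late functional tissue (SE 0.07, adjusted p = 0.0484). The first increase was called on leaving out each of the 12 arrays in turn and without late regressed arrays 2 and 3 together (0.45, adjusted p = 0.044). The second was lost in 11 of the 12 such fits, all but the one without late regressed array 2 (adjusted p from 0.0506 to 0.134).

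ADCY6, a form inhibited by calcium and by inhibitory alpha subunits, read 5.68, 6.25, 6.09 and 6.07 on the mid-late arrays. It read 6.37, 6.51, 6.53 and 6.60 on the late functional arrays and 6.53, 6.43, 6.61 and 6.80 on the late regressed arrays. All late arrays lay above all mid-late arrays, with late functional and late regressed values interleaved. ADCY6 rose by 0.57 in late regressed tissue (SE 0.12, adjusted p = 0.0177), an increase called in all 12 fits that left out 1 array. Without late regressed arrays 2 and 3 its difference was 0.64 with an adjusted p of 0.0532. In late functional tissue its difference of 0.48 did not pass (adjusted p = 0.0781).

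Endothelial markers were read beside ADCY4 and ADCY6. Of 10 endothelial genes 4 rose in late regressed tissue (TEK, CLDN5, ERG and SOX17) and 0 fell. KDR and EMCN differed by -0.83 and -0.41, and neither passed. The mean of all 10, set against the mid-late mean, ran from -0.10 to 0.06 on the mid-late arrays. It ran from 0.08 to 0.235 on the late functional arrays and 0.05 to 0.40 on the late regressed arrays. In array order the late regressed means were 0.34, 0.40, 0.05 and 0.14. The SD over these arrays was 0.06 for ADCY4 and 0.16 for ADCY6, so the order of their values was not read. In the fibroblast list 4 of 8 genes rose, with array means from -0.45 to 0.44 in the mid-late and 0.16 to 0.48 in the late regressed group. The part of either cell type in the 2 cyclases was not tested.

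The other 7 cyclases did not pass. ADCY9 read 6.03, 7.65, 5.61 and 6.96 on late regressed arrays 1 to 4 against 5.90 to 6.90 on the mid-late arrays, a difference of 0.20 (adjusted p = 0.754). Its high and low ends came from arrays 2 and 3, which stood apart together in the luteal markers but lay at opposite ends here. ADCY3, stimulated by calmodulin and common in many tissues, differed by 0.27 (adjusted p = 0.258), or 0.45 without arrays 2 and 3. ADCY5, the close relative of ADCY6, differed by 0.51 (adjusted p = 0.234), with an SD of 0.57 among the late regressed arrays, and by 0.90 without arrays 2 and 3 (adjusted p = 0.0761). ADCY7 lay at -0.23 (adjusted p = 0.116), or -0.13 without them. ADCY8 and ADCY10, the soluble cyclase, had low signal in all groups.

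Phosphodiesterases were the largest family, with 2 of 21 higher, 2 lower and 17 not called, and 8 of low signal. Their median difference was -0.04 in late regressed tissue, and it was 0.01 after median centring of the arrays. Among the 8 cyclic AMP-specific forms 1 rose and 1 fell, both of the PDE4 group that rolipram inhibits. PDE4A read 5.82, 5.97, 6.04 and 6.15 on mid-late arrays 1 to 4, 6.13, 6.22, 6.39 and 6.13 on the late functional arrays and 6.47, 7.08, 7.48 and 6.28 on the late regressed arrays. Late regressed arrays 2 and 3 gave the 2 highest values, and arrays 1 and 4 also lay above every mid-late array. PDE4A rose by 0.83 (SE 0.21, adjusted p = 0.0346), or 0.38 without arrays 2 and 3 (adjusted p = 0.107). The call was lost on leaving out any of the 4 mid-late arrays, late functional array 1 or 2 or late regressed array 2 or 3 (adjusted p from 0.0501 to 0.0883).

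PDE4D went the other way at low signal. It read 4.81, 4.46, 4.64 and 4.38 on the mid-late arrays, 4.31, 4.14, 4.36 and 4.49 on the late functional arrays and 4.19, 4.24, 4.14 and 4.14 on the late regressed arrays. The late regressed values were close together and all lay below the mid-late values. PDE4D fell by 0.40 on the log2 scale (SE 0.10, adjusted p = 0.0325), a fall lost without mid-late array 1, 2 or 3 or late regressed array 3 (adjusted p from 0.0537 to 0.0772). PDE4B, another enzyme of this group, differed by 0.08 (adjusted p = 0.831), and by -0.10 without late regressed arrays 2 and 3. PDE4C differed by 0.42 (adjusted p = 0.0569).

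PDE7A, PDE7B, PDE8A and PDE8B, cyclic AMP-specific enzymes that rolipram does not inhibit, had 0 of 4 called. PDE8A read 8.54 to 8.79 on the mid-late arrays and 8.61 to 8.80 on the late regressed arrays, a difference of 0.04 (adjusted p = 0.771), or 0.11 without arrays 2 and 3. PDE7A read from 4.98 to 5.26 on the mid-late arrays and 5.30, 5.96, 6.52 and 5.30 on the late regressed arrays. Those groups did not overlap, with arrays 2 and 3 farthest off, and the difference was 0.65 (adjusted p = 0.0804), or 0.185 without them. PDE8B read 8.85, 6.45, 7.42 and 8.82 on late regressed arrays 1 to 4 and 8.52, 8.73, 7.40 and 7.25 on the mid-late arrays. Its group means were 7.88 ± 1.17 and 7.98 ± 0.76, and the difference of -0.09 did not pass (adjusted p = 0.926). Without arrays 2 and 3 it turned to 0.86 (adjusted p = 0.296). PDE7B read 6.87, 4.30, 4.60 and 5.68 on the late regressed arrays and 5.33 to 6.15 on the mid-late arrays (difference -0.30, adjusted p = 0.704). It likewise turned, to 0.61, without arrays 2 and 3 (adjusted p = 0.342).

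PDE6A, the alpha subunit of the cyclic GMP phosphodiesterase of rod photoreceptors, had the largest decrease among the phosphodiesterases. Its values were 5.71, 5.52, 5.85 and 5.99 on the mid-late arrays, 5.46, 5.69, 5.38 and 5.12 on the late functional arrays and 5.28, 4.18, 4.30 and 5.05 on the late regressed arrays. All late regressed arrays lay below the mid-late range, arrays 2 and 3 by the most, and array 1 lay above the lowest late functional array. PDE6A fell by 1.06 on the log2 scale (SE 0.23, adjusted p = 0.0192), and by 0.60 without arrays 2 and 3 (adjusted p = 0.0817). Leaving out single arrays ended the call only for late regressed array 3 (adjusted p = 0.051). PDE5A, the cyclic GMP enzyme that sildenafil inhibits, read 8.32, 9.18, 8.07 and 8.79 on the late regressed arrays and 7.76 to 8.41 on the mid-late arrays. Those ranges overlap, and the difference was 0.51 (adjusted p = 0.151). Its second brightest probe set, above low signal, differed by -0.41 (adjusted p = 0.138), and its dimmer ones by 0.04 to 0.15. The probe sets of PDE5A thus disagree in sign.

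Among the 6 forms that cleave both cyclic nucleotides, 5 had low signal, including the 1 that was called. PDE10A read 3.56, 3.61, 3.46 and 3.32 on the mid-late arrays, 3.60, 3.86, 3.65 and 3.81 on the late functional arrays and 4.04, 5.04, 4.67 and 3.86 on the late regressed arrays. Late regressed array 4 tied with the highest late functional array to 2 decimals, and array 2 was the highest of all. PDE10A rose by 0.92 (SE 0.21, adjusted p = 0.0246), or 0.46 without arrays 2 and 3 (adjusted p = 0.0615). The call was lost without any of the 4 mid-late arrays or late regressed array 3 (adjusted p from 0.0521 to 0.0662).

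**Figure D2:**
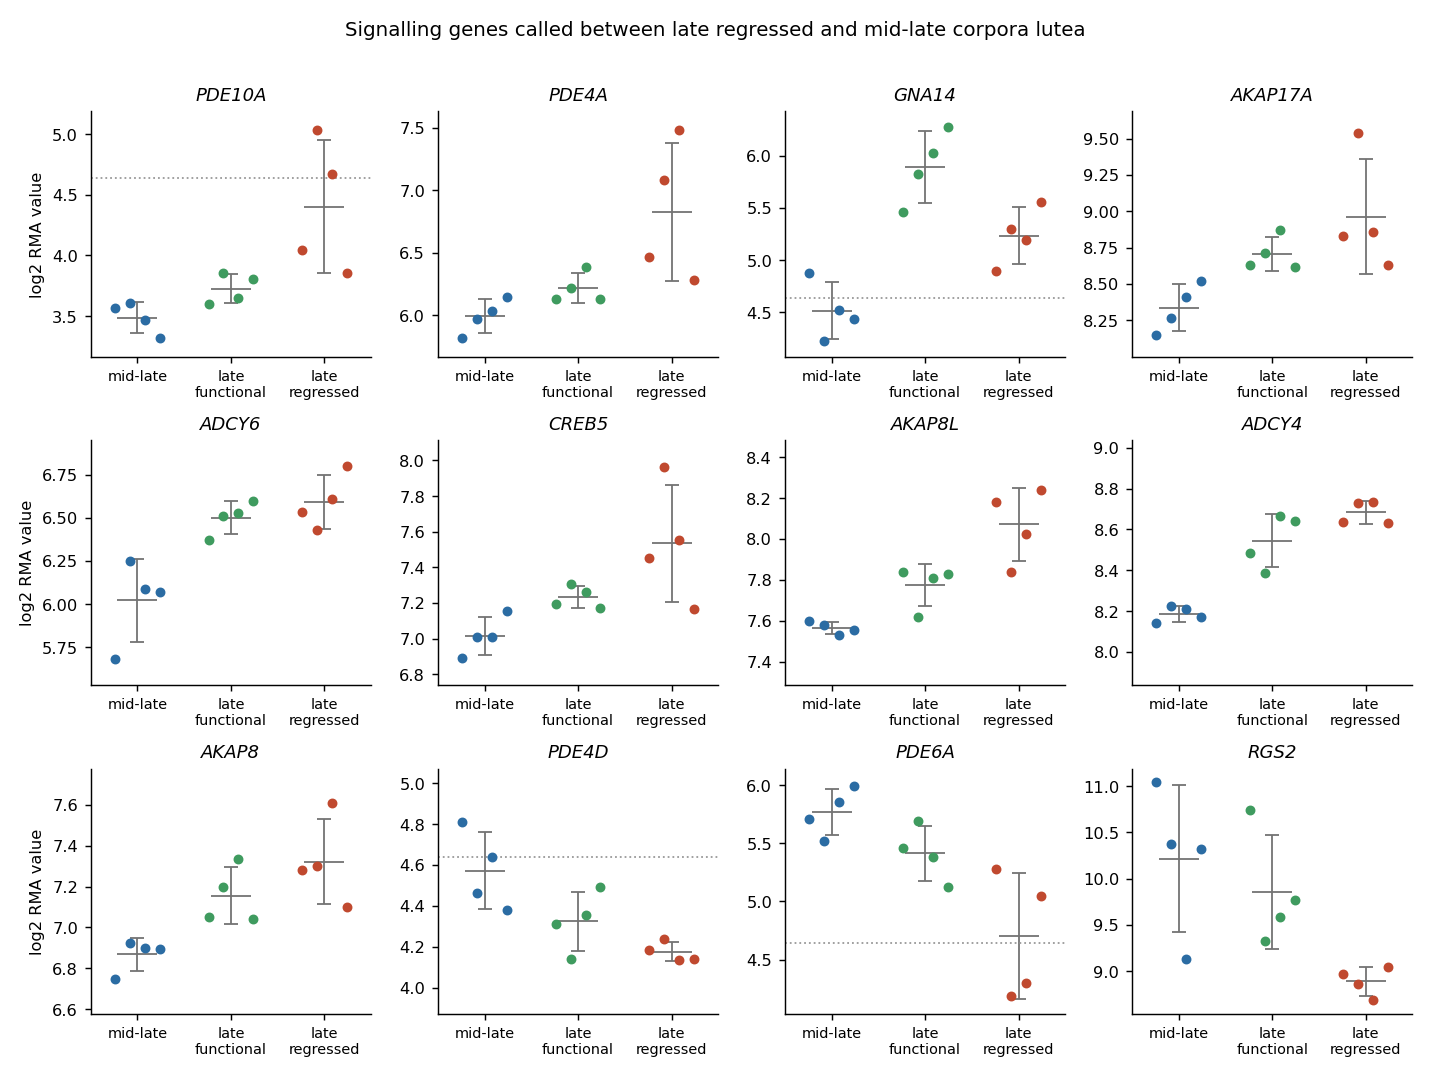
Log2 value of each of the 12 genes called between the late regressed and mid-late groups, with 1 point per array in the 3 groups and bars at the group mean ± SD (n = 4). In each panel the late regressed points lie wholly above or wholly below the mid-late points, and in GNA14 the late functional points, from 5.46 to 6.27, are the highest.

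Protein kinase A is a complex of 2 regulatory and 2 catalytic subunits. None of its 7 measured subunit genes was called by limma in late regressed against mid-late tissue, and 2 of 7 had an unadjusted p below 0.05. Their median difference was -0.04, and 0.00 after median centring of the arrays. PRKACB, a catalytic subunit, read 8.05, 8.18, 8.44 and 8.37 on the mid-late arrays and 8.47, 8.51, 8.46 and 8.31 on the late regressed arrays. The ranges overlap, and the difference was 0.18 (adjusted p = 0.197). PRKACA, the other main catalytic subunit, differed by 0.03 (adjusted p = 0.902), or 0.08 without late regressed arrays 2 and 3.

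The 4 regulatory subunits all had differences below 0, with a median of -0.22; after median centring those of PRKAR1A and PRKAR1B were 0.04 and 0.00. PRKAR2B, a type II regulatory subunit, read 8.38, 8.75, 8.05 and 8.36 on the mid-late arrays, 8.02, 8.47, 8.18 and 7.84 on the late functional arrays and 8.38, 7.46, 7.34 and 7.66 on the late regressed arrays. Late regressed array 1 lay inside the mid-late range and the other 3 below it, and the difference of -0.67 did not pass (adjusted p = 0.0742). It was -0.36 without arrays 2 and 3. PRKAR2A, the other type II subunit, differed by -0.40 (adjusted p = 0.149), and by -0.11 without those arrays. PRKAR1A, a type I subunit, read 8.23, 7.59, 8.72 and 9.11 on the late regressed arrays, and its difference was -0.01 (adjusted p = 0.985). Its second probe set, with a mean of 8.24 over all arrays against 8.46, differed by -0.77 (adjusted p = 0.0716). Neither passed, but the probe sets of this gene disagree in size. PRKAR1B differed by -0.04 (adjusted p = 0.71). Without arrays 2 and 3 the brightest probe set of PRKAR1A turned to 0.25 and PRKAR1B to 0.05.

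Anchoring proteins were higher in late regressed tissue in 3 of 9 cases, with 0 lower, where 7.6% of all genes rose. Of the 9 differences 8 were above 0, where 46.6% of all genes were, and 3 of the 9 genes had low signal. All 9 differences were above 0 after median centring or a renewed quantile normalization, but only AKAP8L kept its call under the latter. The 3 that rose have mainly nuclear proteins: AKAP8, first found on the nuclear matrix, its relative AKAP8L, and AKAP17A, linked to RNA splicing. AKAP8 and AKAP8L lie side by side in the current RefSeq gene table, with 0 protein-coding genes between them.

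AKAP8L read 7.60, 7.58, 7.53 and 7.55 on the mid-late arrays, 7.84, 7.62, 7.81 and 7.83 on the late functional arrays and 8.18, 7.84, 8.02 and 8.24 on the late regressed arrays. The late functional group lay between the others without overlap, though its highest array and the lowest late regressed array both read 7.84 to 2 decimals. AKAP8L rose by 0.51 in late regressed tissue (SE 0.09, adjusted p = 0.0107), was called in all 12 fits that left out 1 array, and had a difference of 0.65 without late regressed arrays 2 and 3 (adjusted p = 0.0243). The 2 late groups differed by 0.30 (adjusted p = 0.254), which did not pass.

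AKAP8 read 6.75, 6.93, 6.90 and 6.90 on the mid-late arrays, 7.05, 7.20, 7.34 and 7.04 on the late functional arrays and 7.28, 7.30, 7.61 and 7.10 on the late regressed arrays. The late groups overlapped each other and both lay above the mid-late group. AKAP8 rose by 0.45 (SE 0.11, adjusted p = 0.0259), and its second probe set also rose, by 0.64 (adjusted p = 0.045). The call was lost without mid-late array 1, 2 or 3 or late regressed array 3 (adjusted p from 0.0516 to 0.0691).

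AKAP17A read 8.15, 8.27, 8.41 and 8.52 on the mid-late arrays, 8.63, 8.71, 8.87 and 8.62 on the late functional arrays and 8.83, 9.54, 8.85 and 8.63 on the late regressed arrays. Late regressed array 2 was the highest, and the remaining late arrays lay close together. AKAP17A rose by 0.62 (SE 0.17, adjusted p = 0.0385), or 0.39 without arrays 2 and 3 (adjusted p = 0.112). The call was lost without any mid-late array, late functional arrays 1 to 3 or late regressed array 3 (adjusted p from 0.0505 to 0.0978). Its other 2 probe sets differed by -0.06 and -0.07, so the probe sets of this gene disagree.

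AKAP1, which holds the kinase at mitochondria, read 7.41, 7.96, 7.33 and 7.64 on the mid-late arrays and 7.92, 8.71, 8.17 and 7.61 on the late regressed arrays. Array 2 was again the highest, the ranges overlap, and the difference was 0.52 (adjusted p = 0.14), or 0.18 without arrays 2 and 3. AKAP9, a large protein of the centrosome and Golgi, was higher on all late functional arrays than on any mid-late array, but its difference of 0.46 did not pass (adjusted p = 0.0997). AKAP12 and AKAP13 had no probe set with a single symbol and were not analysed here.

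The exchange factors RAPGEF3 and RAPGEF4 (EPAC1 and EPAC2) activate the small G protein Rap when they bind cyclic AMP. Limma called 0 of 2 in late regressed against mid-late tissue, and 0 of 2 had an unadjusted p below 0.05. RAPGEF4 read 8.26, 8.02, 8.21 and 8.10 on the mid-late arrays and 8.84, 8.79, 8.46 and 8.69 on the late functional arrays. On the late regressed arrays it read 8.30, 6.23, 6.06 and 8.24. Late functional arrays all lay above the mid-late range, and late regressed arrays 2 and 3 lay near 2 log2 units below arrays 1 and 4.

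The late regressed group of RAPGEF4 therefore had an SD of 1.23 against 0.11 in the mid-late group, and its difference of -0.94 did not pass (adjusted p = 0.184). Without arrays 2 and 3 the difference was 0.12 (adjusted p = 0.598). RAPGEF4 in late functional tissue differed by 0.55, which did not pass with all arrays in the fit (adjusted p = 0.545) and did without late regressed arrays 2 and 3 (adjusted p = 0.0178). These arrays enter that value through the shared estimate of spread and the adjustment, not through its means. The luteal marker mean was also lowest on arrays 2 and 3, and its part in the RAPGEF4 values was not tested.

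RAPGEF3 read 5.71, 5.56, 5.72 and 5.69 on the mid-late arrays, 5.93, 5.94, 5.89 and 6.04 on the late functional arrays and 5.91, 5.76, 5.76 and 5.78 on the late regressed arrays. Both late groups lay above the mid-late group. The difference was 0.28 in late functional tissue (adjusted p = 0.069) and 0.13 in late regressed tissue (adjusted p = 0.204), and neither passed.

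CREB and CREM factors bind cyclic AMP response elements or related sites, and 1 of 8 rose. CREB5 read 6.89, 7.01, 7.01 and 7.15 on the mid-late arrays, 7.19, 7.31, 7.26 and 7.17 on the late functional arrays and 7.45, 7.96, 7.56 and 7.17 on the late regressed arrays. Late regressed array 2 was the highest, and array 4 lay just above the highest mid-late array. CREB5 rose by 0.52 (SE 0.14, adjusted p = 0.036), or 0.29 without arrays 2 and 3 (adjusted p = 0.154). The call was lost without mid-late arrays 1 to 3, late functional arrays 1 to 3 or late regressed array 3 (adjusted p from 0.0509 to 0.0915).

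The factors best known as targets of protein kinase A did not pass. CREB1 read from 7.47 to 7.83 on the mid-late arrays and from 7.62 to 8.01 on the late regressed arrays, a difference of 0.16 (adjusted p = 0.272), or 0.09 without arrays 2 and 3. CREM, whose gene also encodes the cyclic AMP-induced repressor ICER, read 9.70, 9.47, 9.47 and 9.51 on the mid-late arrays and 9.88, 9.31, 9.06 and 9.41 on the late regressed arrays. Array 1 was above the mid-late range and the other 3 below it, and the difference was -0.12 (adjusted p = 0.59), turning to 0.11 without arrays 2 and 3. CREB3, CREB3L1 and CREB3L2 belong to a group of factors held in the membrane of the endoplasmic reticulum, and differed by -0.45, -0.18 and -0.28 (adjusted p of 0.114, 0.392 and 0.103).

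Among the 18 RGS proteins and partners 1 fell and 0 rose, and 11 had low signal. RGS2, which acts mainly on Gq and also inhibits adenylyl cyclases directly, read 11.04, 10.37, 9.14 and 10.32 on the mid-late arrays. It read 10.74, 9.33, 9.59 and 9.77 on the late functional arrays and 8.97, 8.86, 8.69 and 9.05 on the late regressed arrays. The late regressed arrays were close together and lay below every other array, while the mid-late arrays ranged widely.

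RGS2 fell by 1.32 on the log2 scale in late regressed against mid-late tissue (SE 0.37, adjusted p = 0.0437), the largest of the 12 called differences. Its second probe set fell by 1.16 (adjusted p = 0.026). The call was kept in 2 of the 12 fits that left out 1 array, those without mid-late array 3 or late functional array 1. In the other 10 fits the adjusted p ran from 0.0506 to 0.107. Without late regressed arrays 2 and 3 together the difference was -1.21 (adjusted p = 0.183).

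RGS1 and RGS16 belong to the same R4 subfamily as RGS2. RGS1, best known in lymphocytes, read 3.23, 3.24, 3.15 and 3.33 on the mid-late arrays, 4.11, 4.73, 4.38 and 3.55 on the late functional arrays and 4.14, 4.72, 6.33 and 3.14 on the late regressed arrays. RGS1 had low signal in all groups, with means of 3.24, 4.19 and 4.58. Late regressed array 4 lay below all mid-late arrays while array 3 was the highest. The difference was 1.35 in late regressed tissue (adjusted p = 0.108) and 0.96 in late functional tissue (adjusted p = 0.342). Without arrays 2 and 3 the first was 0.41 (adjusted p = 0.493). RGS16 read 4.94, 6.75, 6.68 and 4.80 on the late regressed arrays and 4.72 to 5.58 on the mid-late arrays. Arrays 2 and 3 were high and arrays 1 and 4 lay inside the mid-late range, and the difference was 0.55 (adjusted p = 0.40), or -0.37 without arrays 2 and 3.

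Of the macrophage markers 0 of 11 were called in late regressed tissue by limma, and 6 had an unadjusted p below 0.05. Their mean ran from -0.825 to 0.93 on the mid-late arrays and 1.10 to 1.18 on the late functional arrays. On the late regressed arrays it was, in order, 0.75, 0.62, 1.92 and 0.28. On the mid-late arrays it was -0.825, -0.39, 0.93 and 0.29, where RGS1 had low signal and an SD of 0.07. Of the lymphocyte markers 5 of 10 were measured, 0 were called and 1 had an unadjusted p below 0.05, with means from -0.205 to 0.24, -0.48 to 0.05 and -0.89 to -0.04. The part of these cells in the RGS1 values was not tested. RGS1, RGS13 and RGS2 follow each other in the RefSeq gene table with 0 coding genes between RGS1 and RGS13 and between RGS13 and RGS2. RGS13 had low signal and differed by -0.23 (adjusted p = 0.189).

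**Figure D3:**
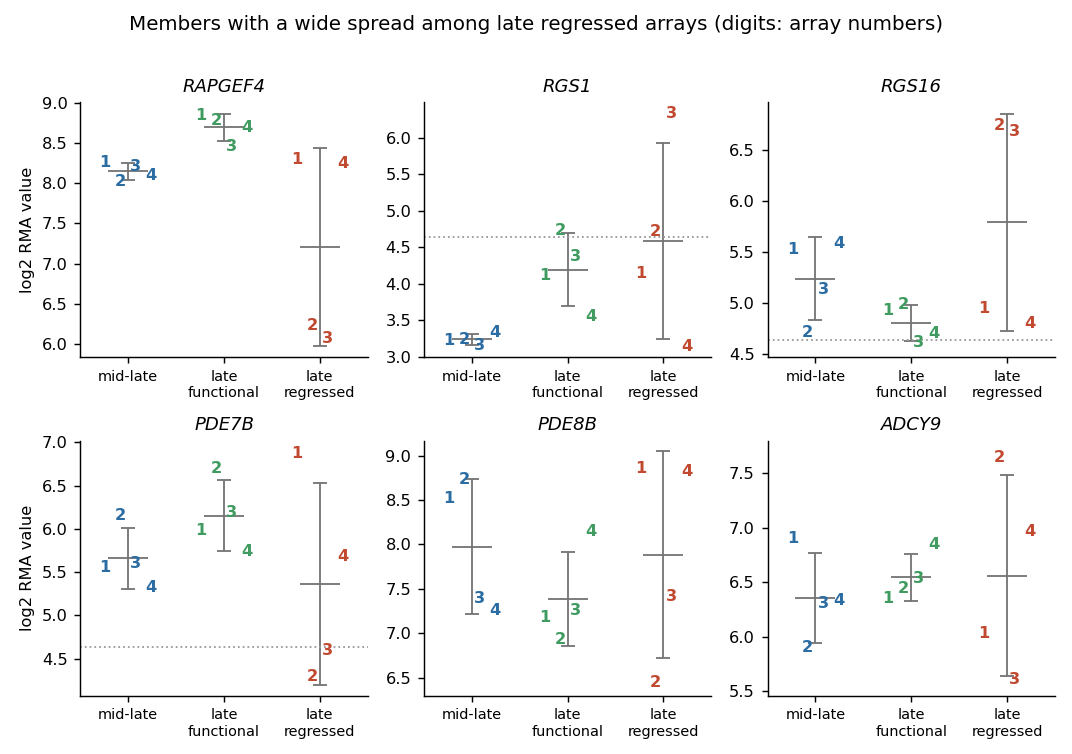
Log2 value on each array of RAPGEF4, RGS1, RGS16, PDE7B, PDE8B and ADCY9, with digits giving the array number within its group and a dotted line at 4.64, the low-signal level. Late regressed arrays 2 and 3 lie at 6.23 and 6.06 in RAPGEF4 and at 6.75 and 6.68 in RGS16, on opposite sides of arrays 1 and 4, while in ADCY9 they lie at 7.65 and 5.61.

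The SD was largest in the late regressed group for 47 of the 79 genes, or 59.5%, against 58.9% of all genes. The 4 largest late regressed SDs were those of RGS1 (1.33), RAPGEF4 (1.23), PDE7B (1.17) and PDE8B (1.17). In none of these did late regressed differ from mid-late tissue past the threshold.

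Late functional and mid-late tissue differed in 2 of the 79 genes, GNA14 and ADCY4, or 2.53% against 1.17% of all genes. Both rose, and 0 fell. In 19 genes (24.1%) the arrays of these groups did not overlap, against 18.9% of all genes, and 18 (22.8%) had an unadjusted p below 0.05, against 20.1% of all genes. Both comparisons use the same mid-late arrays. ADCY4 was nearly as high in late functional (8.54 ± 0.13) as in late regressed tissue (8.68 ± 0.06). PDE10A, of low signal, stood at 3.73 ± 0.12 and 4.40 ± 0.55 and RGS2 at 9.86 ± 0.62 and 8.89 ± 0.16. Between the late groups these 2 genes differed by 0.68 and -0.96, and neither passed (adjusted p of 0.263 and 0.339). For PDE10A this was 0.225 without late regressed arrays 2 and 3. Leaving those arrays out changes the estimate of spread but not the late functional or mid-late means. In that fit 6 genes rose in late functional tissue and 5.71% of all genes were called. The 4 added were ADCY6, AKAP9, RAPGEF3 and RAPGEF4.

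Late regressed and late functional tissue, of the same days and of different progesterone output, differed in 0 of the 79 genes by limma. At an unadjusted p below 0.05 there were 14, or 17.7%, against 16.1% of all genes. Over all genes 1 was called, 0.00708%. In 6 genes (7.59%) the arrays of the late groups did not overlap, against 5.91% of all genes, and these were AKAP8L, PDE10A, RAPGEF4, RGS2, RGS4 and RGS12. The largest of these differences was -1.49 in RAPGEF4 (adjusted p = 0.254), which was -0.43 without late regressed arrays 2 and 3.

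Any difference among the 3 groups was called by limma's F test in 6 of the 79 genes, 7.59% against 6.65% of all genes. They were ADCY4, ADCY6, AKAP8L, GNA14, PDE6A and RGS4. RGS4, an R4 family member of low signal, was called in none of the pairwise comparisons. It read 4.28, 4.31, 4.35 and 4.29 on the mid-late arrays, 4.12, 3.89, 4.11 and 4.09 on the late functional arrays and 4.30, 4.57, 4.44 and 4.57 on the late regressed arrays. The late functional arrays lay below all other arrays (F test adjusted p = 0.031). The late groups differed by 0.42 (adjusted p = 0.113), and this was called without late regressed array 1.

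Several probe sets measured 43 of the 79 genes. The 8 called genes among these had 17 other probe sets, of which 6 were above low signal, 7 had the sign of the brightest and 2 were called, those of AKAP8 and RGS2. For PDE4A the 4 others had low signal and differed by -0.06 to 0.09. AKAP8L had others at 0.34, 0.00 and 0.09. CREB5 had others at -0.24, -0.03 and -0.06 against 0.52 in its brightest. The other probe set of PDE6A lay at 0.09 against -1.06, and those of PDE10A at -0.16 and 0.11 against 0.92. These others of CREB5, PDE6A and PDE10A had low signal, so for these genes the change rests on the brightest probe set alone. In CREB3L3, PDE7A and PDE12 a dimmer probe set was called and the brightest was not.

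**Figure D4:**
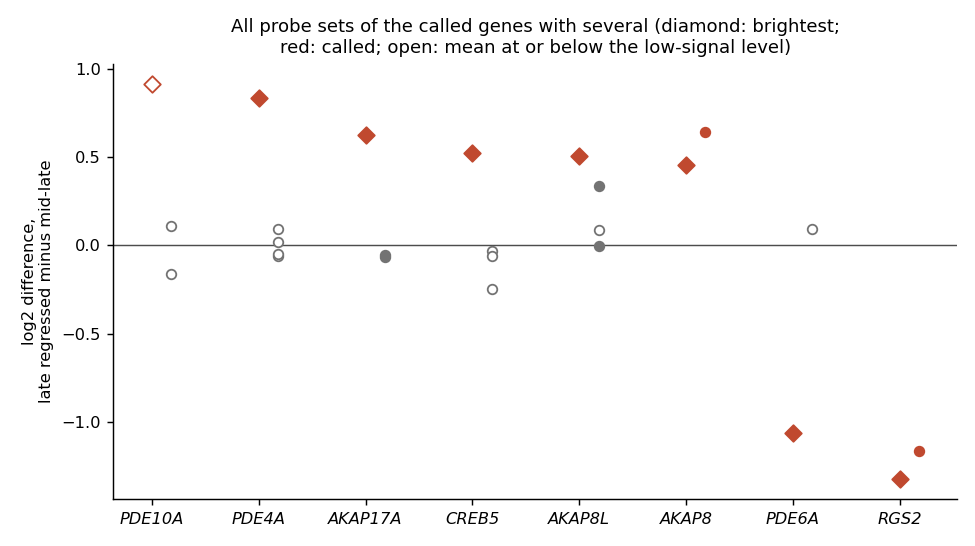
Log2 difference of the late regressed from the mid-late group for every probe set of the 8 called genes that have several; diamonds are the brightest probe set of a gene, circles its others, red the called and open symbols the probe sets of low signal. In AKAP8 and RGS2 a second probe set lies on the same side and is called, at 0.64 and -1.16, and in AKAP17A the other 2 lie at -0.06 and -0.07.

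Partners of these genes were read from 5 further lists, 67 measured genes in all, of which 8 rose and 3 fell in late regressed against mid-late tissue, or 16.4% against 13.1% of all genes. In the list of other cyclic AMP pathway genes 5 of 26 rose and 1 fell. Those that rose included the histone acetyltransferases CREBBP and EP300 and the CREB coactivators CRTC2 and CRTC3. The third CRTC coactivator, CRTC1, differed by -0.15 (adjusted p = 0.253) and the CREB relative ATF1 by -0.70 (adjusted p = 0.255), and neither passed. CRTC2 read 6.25, 6.51, 6.38 and 6.39 on the mid-late arrays, 6.65, 6.51, 6.70 and 6.56 on the late functional arrays and 6.82, 6.93, 7.17 and 6.92 on the late regressed arrays. Every late regressed array lay above all others, and CRTC2 rose by 0.58 (SE 0.09, adjusted p = 0.00742). EP300 rose by 0.73 (SE 0.10, adjusted p = 0.00697) in late regressed and by 0.59 (adjusted p = 0.0363) in late functional tissue.

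The late regressed increases of CRTC2 and EP300 were called on leaving out each of the 12 arrays and without late regressed arrays 2 and 3 (adjusted p of 0.0404 and 0.0395). CREBBP rose by 0.78 (adjusted p = 0.0218), a call lost without mid-late array 1 or 2 or late regressed array 3, and differed by 0.50 without arrays 2 and 3. CRTC3 rose by 0.55 (adjusted p = 0.0231), a call lost without mid-late array 1, 2 or 3 or late regressed array 3, and differed by 0.355 without arrays 2 and 3. The fifth to rise was RAPGEF1, an exchange factor for Rap that does not bind cyclic AMP, by 0.41 (adjusted p = 0.0452), and differed by 0.26 without arrays 2 and 3 (adjusted p = 0.266). HCN3, a channel modulated by cyclic nucleotides, had low signal in all groups. It fell by 0.29 in late regressed (adjusted p = 0.0359) and by 0.41 in late functional tissue (adjusted p = 0.042). Single arrays ended the late regressed call of RAPGEF1 in 9 of 12 fits and that of HCN3 in 7 of 12, and HCN3 had an adjusted p of 0.163 without arrays 2 and 3.

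Of 13 measured receptors 1 rose and 1 fell. ADCYAP1R1, the receptor of the peptide PACAP, rose by 0.42 (adjusted p = 0.0263), a call lost without mid-late array 1 or 2 or late regressed array 3, and without arrays 2 and 3 together (adjusted p = 0.149). ADORA1, the adenosine receptor that lowers cyclic AMP, fell by 0.38 on the log2 scale (adjusted p = 0.0476), a call kept in 2 of 12 fits without 1 array and lost without arrays 2 and 3 (adjusted p = 0.232). ADORA2B, an adenosine receptor that raises cyclic AMP, was singled out after its values were seen. It read 4.37, 7.73, 8.16 and 4.66 on the late regressed arrays and 4.24 to 4.54 on the mid-late arrays, high on arrays 2 and 3 alone, and its difference of 1.87 did not pass (adjusted p = 0.112).

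GNB1, a beta subunit, was the 1 of 10 beta and gamma subunits to rise, by 0.66 (adjusted p = 0.0277), and differed by 0.45 without arrays 2 and 3 (adjusted p = 0.172). Its call was kept in 6 of 12 fits without 1 array. ARRB2, an arrestin that takes receptors out of action, was the 1 of 6 receptor kinases and arrestins to rise, by 0.87 (adjusted p = 0.0449). It differed by 0.34 without arrays 2 and 3, and its call was kept in 2 of 12 fits without 1 array.

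Of 12 measured genes known to respond to cyclic AMP 1 fell and 0 rose, and 4 had an unadjusted p below 0.05. Their median difference was -0.40. STAR and INHA differed by -2.20 and -1.58, both lowest on late regressed arrays 2 and 3, and did not pass (adjusted p of 0.0508 and 0.0982). FOS, JUNB and SGK1 differed by 0.76, 0.75 and 0.69 and did not pass either. AREG, which encodes the growth factor amphiregulin and is induced by LH in the ovarian follicle, read 11.83, 12.05, 11.53 and 12.13 on the mid-late arrays. It read 11.63, 11.11, 10.29 and 8.69 on the late functional arrays and 8.73, 10.18, 8.73 and 8.98 on the late regressed arrays. Late functional array 1 lay inside the mid-late range and array 4 below every late regressed array, with the other 2 between. AREG fell by 2.73 on the log2 scale in late regressed tissue (SE 0.53, adjusted p = 0.0141), called on leaving out each of the 12 arrays and without late regressed arrays 2 and 3 (adjusted p = 0.0414). Its difference of -1.46 in late functional tissue did not pass (adjusted p = 0.177).

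**Figure D5:**
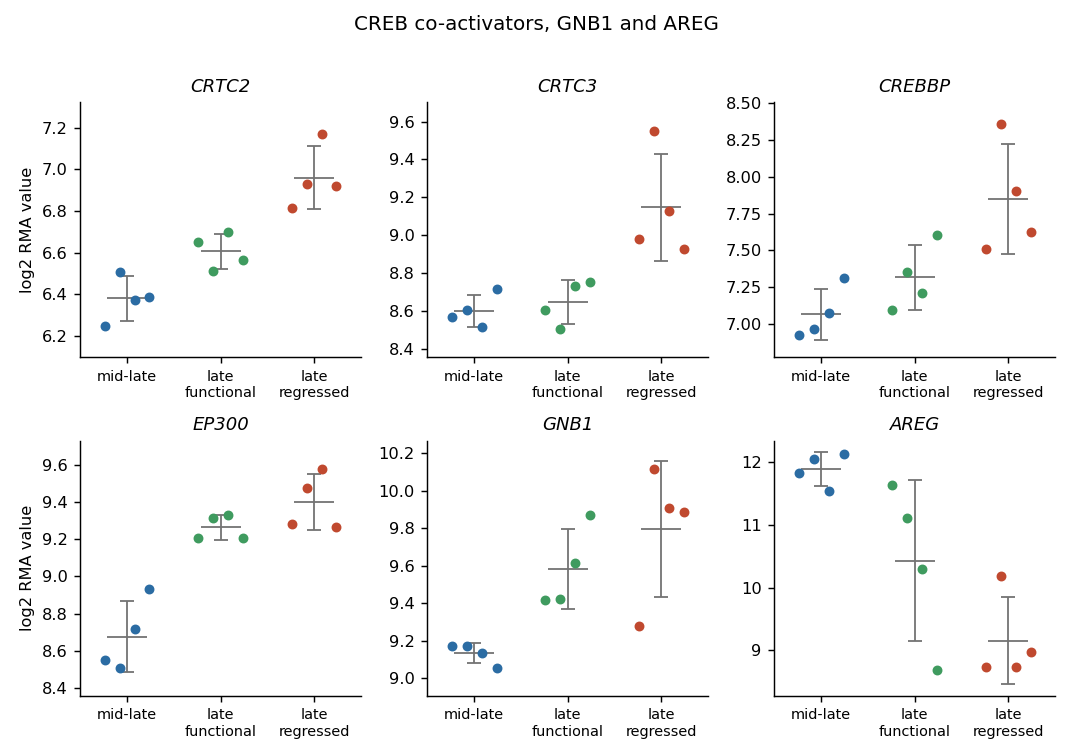
Log2 value on each array of the coactivators CRTC2, CRTC3, CREBBP and EP300, the beta subunit GNB1 and the cyclic AMP-responsive gene AREG, with bars at the group mean ± SD (n = 4). In AREG the late functional points run from 8.69 to 11.63, and in CRTC2 the late regressed points lie above all others.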

How the data were processed

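Total RNA of 12 corpora lutea was hybridised to 1 one-colour array each, 4 in each of 3 groups taken from the sample titles. The log2 values analysed are those deposited by the authors. RMA was used, per the submitters' processing notes; version, settings and scan dates were not given in the sources used here. Batches were therefore not tested. RMA commonly forces arrays towards 1 distribution, which hides a change in total RNA per cell.

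Of 52865 probe sets 158 array controls were left out. Of the 52707 tested, 24956 had 1 symbol, 361 several and 27390 none, and a gene was read by its brightest probe set (14132 genes). Of the 79 genes, 78 were found by Entrez ID in a RefSeq gene table (assembly T2T-MMU8v2.0), all with the same symbol. Positions in that table were used only to order neighbouring genes, and no sequences were used.

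Group means over all 12 arrays were fitted in limma 3.58.1 (R 4.3.3) with lmFit and eBayes, with p-values adjusted over all tested probe sets within a comparison. The procedure was tested on simulated data. With 4 arrays a group, precision is limited by their number. The genes and the lists were chosen with earlier results of these data known, so their direction is not independent evidence. Named genes were those called in any comparison, a panel of 35 genes by role (27 measured), the 4 with the largest late regressed SD and up to 6 called genes of each further list: receptors, beta and gamma subunits, receptor kinases and arrestins, other cyclic AMP genes and cyclic AMP-responsive genes. Marker lists covered luteal cells (4 of 10 genes lower in late regressed tissue, 0 higher), macrophages, lymphocytes, endothelium, mural cells (1 of 7 lower, 0 higher) and fibroblasts. Alternatives changed the filter, scaling, arrays in the fit, covariates, weights, prior, probe set rule and threshold.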

Additional observations from a re-analysis of the deposited data

Results flagged for a closer look

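Of 114 groups of 4 arrays looked at, those of the 38 named genes among the 79, 6 held a value far from the other 3 arrays. Chance alone gives such a value in about 1 of 20 groups, or 5.7 here.

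CREM read 9.70 on mid-late array 1 against 9.47 to 9.51 on the other mid-late arrays, and 9.49 on late functional array 2 against 9.57 to 9.59. PRKAR1A read 8.84 on mid-late array 1 against 8.23 to 8.33. RAPGEF3 read 5.91 on late regressed array 1 against 5.76 to 5.78. Late functional array 2 was also the lowest in AKAP8L, at 7.62 against 7.81 to 7.84, and in RGS4, at 3.89 against 4.09 to 4.12.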

How the results depend on the processing

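Between late regressed and mid-late tissue 12 of the 79 genes were called. The number was 2 with only the groups compared, 2 without late regressed arrays 2 and 3, 2 at a minimum of 2-fold, 0 with the NC mean as a covariate and 5 with array weights. It ran from 4 to 13 when single arrays were left out (4 without mid-late array 2 or late regressed array 3). Between late functional and mid-late tissue the 2 genes became 6 with only the groups compared, 6 without late regressed arrays 2 and 3, 0 with the NC covariate, 5 with array weights, and 1 each with a filter on low signal, a renewed quantile normalization, a trended robust prior or a minimum of 2-fold. Leaving out single arrays gave 0 to 2. Between the late groups the 0 became 1, RGS4, with the mean over probe sets, and 0 to 1 without single arrays. The 6 genes of the F test became 0 with the NC mean and 1 to 11 without single arrays. The share of all genes called also moved between settings, as given above without late regressed arrays 2 and 3 and with the NC covariate. These counts are thus not read as particular to the 79 genes.

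With the replicate number as a block, late functional against mid-late tissue gave 0 called genes and late regressed against mid-late 11. No clear pairing by number was seen: over 12 same-numbered pairs the correlation of deviations ran from -0.122 to 0.296, and 3 were above 0.1. Differently numbered pairs ran from -0.236 to 0.263. These values cannot settle whether arrays of the same number shared a batch. Among all called genes on the array, 58% were higher in late regressed than in mid-late tissue, 69.5% after median centring and 41.9% after a renewed quantile normalization.

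AKAP17A turned to -0.0558 and RAPGEF1 to -0.0855 without probe sets of the x and s types, and ADORA1 to 0.0661 with the NC mean. The cause was not tested. Of 36 named differences that were not called, 19 turned sign in at least 1 refit. The signal of the 27 dim genes over background limits what could be measured in them.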
